A study of Mus musculus with 24 samples.

Results

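The genes described here carry cholesterol synthesis, its control by sterols, and the uptake, transport, storage and efflux of cholesterol. They are 30 of the 30153 genes in a table of TPM values (a transcript level scaled by length and by library), chosen by symbol through their mouse Ensembl identifiers on GRCm38, and all 30 were above 0 TPM in every library. By role, 17 encode enzymes of synthesis, 4 sense sterols and control synthesis, 5 belong to the liver X receptors and efflux, and 4 to uptake, transport and storage. The libraries came from mice labelled C57/BL6, tissue kidney, and were made from polyadenylated RNA. There were 6 groups of 4, of which 3 were labelled western diet and are called diet-fed here: Hap-I adults, Hap-II adults, and Hap-I mice labelled aged. The other 3 were Hap-I adults with no diet named, aged Hap-I mice with no diet named, and C57 adults with no diet named. Hap-I and Hap-II mice carry haplotype I or II of the human angiotensin receptor type 1, which the series describes as overexpressed in hypertensive mice, and the C57 group has neither label. The labels give no exact ages, no sex, and no promoter or founder line for the human gene. No C57 group on the diet and no Hap-II group without it were analysed here, so the line and the diet differ together whenever a western diet group is set against C57. Y-linked transcripts differ in part with them, as given below.

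Cells make cholesterol from acetyl-CoA through mevalonate, isoprenoid diphosphates, squalene and lanosterol. When sterol in the endoplasmic reticulum is low, the escort protein SCAP carries the transcription factors SREBP1 and SREBP2 to the Golgi apparatus, where they are cut and released to activate the synthesis genes, and INSIG proteins hold the complex back when sterol is high. Oxysterols activate the liver X receptors, which switch on efflux transporters such as ABCA1 and ABCG1 and, in many tissues, SREBP1 and a ubiquitin ligase that marks lipoprotein receptors for degradation. The kidney both makes cholesterol and takes it up, whereas the brain makes nearly all of its own and moves it between cells on particles that contain apolipoprotein E.

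Promoter stretches of 3 members show the sequence side of this control: an early synthesis enzyme, the SREBP2 gene itself, and an efflux transporter. They are RefSeq sequence on GRCm38.p6, from 250 bases before the annotated start up to the first base of any annotated exon, written 5′ to 3′ on the gene's strand. Capitals mark matches to 3 motifs searched on both strands: TCACNCCAC, a form of the sterol regulatory element bound by SREBPs, CCAAT, the box bound by NF-Y, and AGGTCA repeated after 4 bases of any kind, the direct repeat bound by liver X receptors.
Hmgcs1, chr13:119690101-119690350, plus strand: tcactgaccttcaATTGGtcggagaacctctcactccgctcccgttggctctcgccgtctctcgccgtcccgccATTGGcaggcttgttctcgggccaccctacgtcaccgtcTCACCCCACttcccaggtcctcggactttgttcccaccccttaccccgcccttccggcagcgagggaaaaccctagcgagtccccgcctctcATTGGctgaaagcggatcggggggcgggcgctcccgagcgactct
Srebf2, chr15:82147019-82147180, plus strand: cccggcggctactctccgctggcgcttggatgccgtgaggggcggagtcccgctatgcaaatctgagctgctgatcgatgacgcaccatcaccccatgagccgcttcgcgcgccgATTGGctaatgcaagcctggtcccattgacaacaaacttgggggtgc
Abca1, chr4:53159896-53160145, minus strand: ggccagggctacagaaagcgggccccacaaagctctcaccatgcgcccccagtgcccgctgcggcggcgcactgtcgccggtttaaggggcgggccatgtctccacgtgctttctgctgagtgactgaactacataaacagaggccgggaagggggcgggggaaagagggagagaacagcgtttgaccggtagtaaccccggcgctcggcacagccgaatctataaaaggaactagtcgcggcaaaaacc
The Hmgcs1 stretch holds 1 sterol regulatory element, from -137 to -129 relative to the start, between CCAAT boxes on the other strand, of which it holds 3. The Srebf2 stretch holds 1 CCAAT box, and the Abca1 stretch holds no exact match to the 3 motifs. Sites that differ from the letters given were not searched, so an unmarked stretch may still hold one. Among the 24 members with a RefSeq window of 300 bases (250 before and 50 after the start), 19 held a CCAAT box, compared with 41.1% of all genes with a window. The sterol regulatory element was found in 1 of these 24, Hmgcs1, compared with 1.44% of all genes, and the direct repeat in 0 of 24, compared with 0.015%. No match overlapped a match to another motif in the 3 stretches shown. Fdps, Fdft1, Sqle, Abcg1, Npc1 and Stard4 were not among the windows used.

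The libraries differed in ways that touch every comparison below. The 8 Hap-I libraries with no diet named held brain transcripts: 7 neuron markers summed to 3743 to 4749 TPM there, against 0.631 to 6.11 TPM in the other 16 libraries, and 11 nephron markers to 3.33 to 118 TPM, against 8256 TPM or more, most of it Kap. These 8 libraries go against their kidney label, and kidney results below rest on the other 16. Transcripts of the mitochondrial genome took 21.2 to 35.7% of TPM on western diet, against 12.4 to 16.9% in C57 adults. On the log2(TPM + 1) scale used for all tests, the median gene differed by -0.80 in diet-fed Hap-I adults and by -0.59 in diet-fed Hap-II adults, each against C57. Counts of members called against C57 are therefore also given after median-of-ratios rescaling, which sets the median gene of each library to a common level. By annotated transcript length, the median change against C57 ran from -0.71 (up to 1000 bases) to -0.97 (over 3000) in diet-fed Hap-I adults. In diet-fed Hap-II adults it ran from -0.52 to -0.75. Genes above 0 TPM numbered 15975 to 18395 on western diet, lowest in diet-fed Hap-I adult replicate 4, and 17990 to 18449 in C57 adults. Eif2s3y, a Y-linked gene, was 0.019 to 0.107 TPM in C57 adults and 6.59 to 31.2 TPM in the 8 Hap-I libraries with no diet named. It was at 5 TPM or more in 7 of the 12 western diet libraries. The 5 below were diet-fed Hap-I adult replicate 1, diet-fed aged Hap-I replicates 1 and 2, and diet-fed Hap-II replicates 1 and 2. Counts with Y-linked transcripts in the model are given below. Cell type markers were set against C57 as well, where 59.7% of all genes were lower in diet-fed Hap-I adults and 36.9% in diet-fed Hap-II adults. Of 11 nephron markers, 8 were lower in diet-fed Hap-I adults and 4 in diet-fed Hap-II adults, and all 4 endothelial markers were lower in both. Of 7 macrophage markers 2 and 1 were lower. Of 4 hepatocyte markers tested, 2 were higher and 1 lower in diet-fed Hap-I adults, and 1 higher and 0 lower in diet-fed Hap-II adults. Marker counts were not repeated after rescaling. Summed adipocyte markers (6 genes, of which 4 were tested and lower in both) ran from 107 to 343 TPM on western diet and from 147 to 1242 TPM in C57 adults. In tissue RNA, fewer cells of a type and less RNA per cell cannot be told apart, and the part of these shifts in the results was not tested.

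In C57 kidneys the members spanned a wide range of levels. Apoe, the apolipoprotein that carries cholesterol between cells, stood highest at 311 ± 82.8 TPM (SD, n = 4), followed by Cyp51, lanosterol demethylase, at 117 ± 11.95 TPM, Hmgcs1, which makes the HMG-CoA that enters the pathway, at 90.2 ± 22.01 TPM, and Ebp, a late sterol isomerase, at 75.5 ± 8.48 TPM. The lowest were Npc1, which exports cholesterol from lysosomes, at 3.98 ± 1.64 TPM and Abcg1, an efflux transporter, at 4.04 ± 1.30 TPM, and the spreads of these 2 overlap. Neighbours in that order were not always apart: C57 libraries ran from 57.8 to 106 TPM for Hmgcs1 and from 68.8 to 87.9 TPM for Ebp, which overlap, whereas those of Cyp51 began at 107 TPM. Summed over the 17 synthesis genes, the level was 266 to 493 TPM in the 12 western diet libraries and 566 to 611 TPM in the 4 C57 libraries, with no overlap. Over the 4 sensing and control genes the sum was 24.3 to 65.7 TPM on western diet and 68.8 to 99.2 TPM in C57 adults, again with no overlap. Both sums are of TPM as deposited, so they include the lower level of the median gene in diet-fed adults given above.

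**Figure D1:**
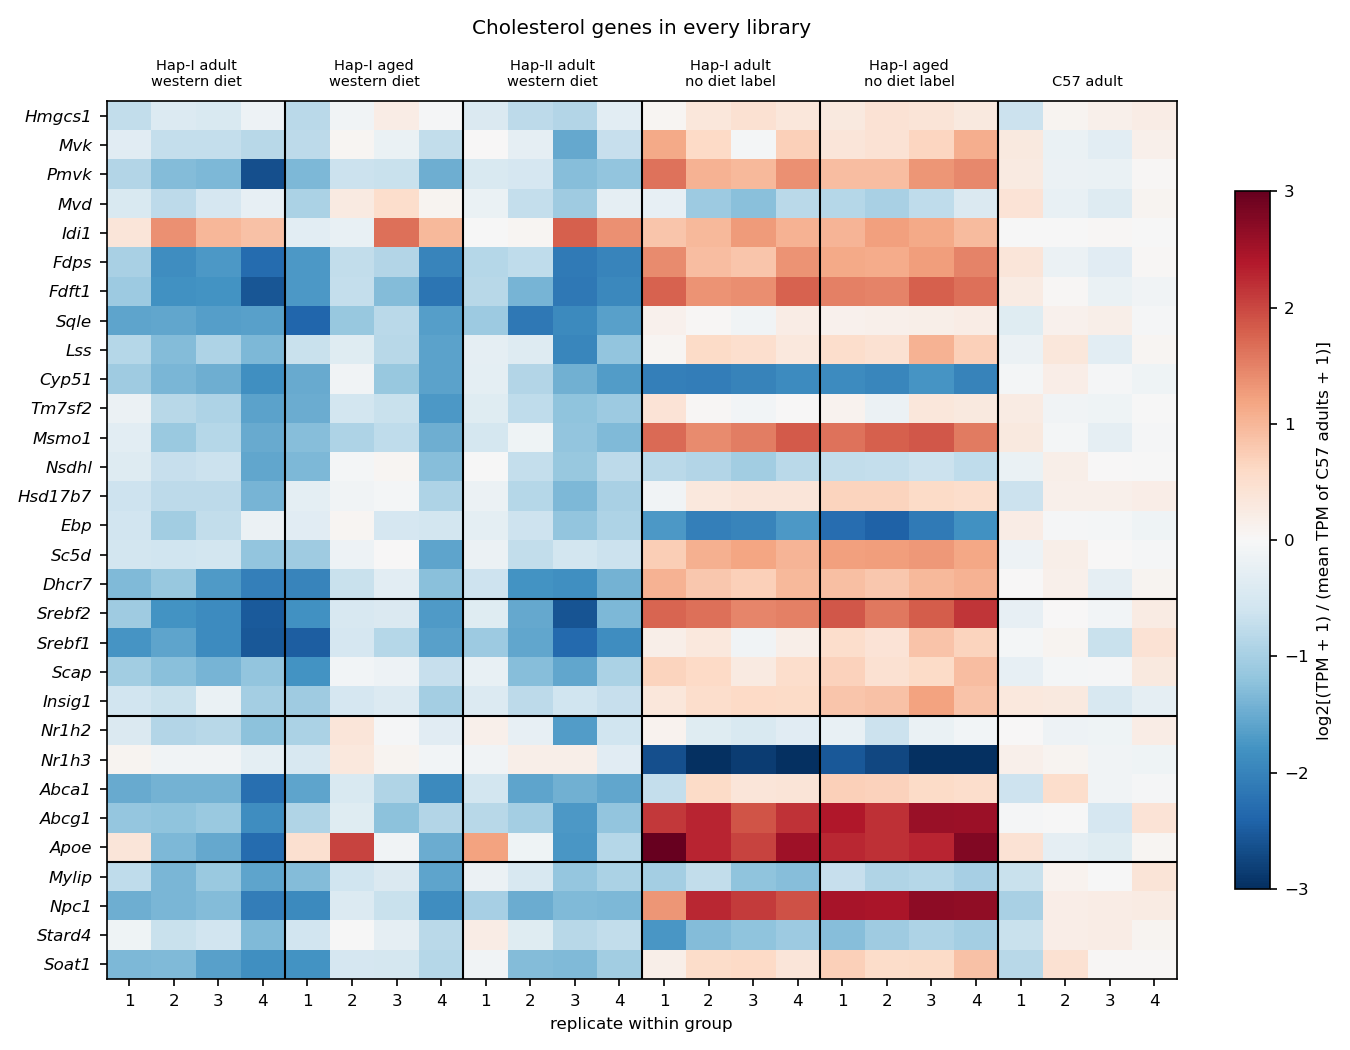
Level of each of the 30 cholesterol genes (rows, in the order synthesis, sensing and control, liver X receptors and efflux, uptake and storage) in each of the 24 libraries (columns, 4 replicates a group), as log2 of TPM + 1 over the C57 mean + 1. Blue prevails in the 12 western diet libraries, Idi1 is strongly red in 7 of them (30.05 to 57.4 TPM), and the 8 Hap-I libraries with no diet named have a pattern of their own with Nr1h3, Ebp and Cyp51 in blue.

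Cholesterol genes were mostly lower in kidneys of both haplotype lines on western diet than in C57 kidneys, and only part of that exceeded the shift of the whole transcriptome. In diet-fed Hap-I adults, 23 of 30 members were lower and 0 higher by limma (adjusted p under 0.05), where 59.7% of all 12923 genes tested were lower and 2.28% higher (62.0% in either direction). The members' median change was -1.12, against -0.80 for all genes, and 21 of 30 members lay below the median gene. In diet-fed Hap-II adults 16 of 30 were lower and 0 higher, where 36.9% of all genes were lower and 2.73% higher (39.7% in either direction), with a median of -0.82 against -0.59. After median-of-ratios rescaling the Hap-I count was 8 lower and 2 higher (Idi1 and Nr1h3), and the Hap-II count 5 lower and 1 higher (Nr1h3). The same rescaling moved the split of all genes from mostly lower to 2304 higher and 1831 lower in diet-fed Hap-I adults, and to 1661 higher and 1262 lower in diet-fed Hap-II adults. Under all 3 scalings (as deposited, median of ratios and quantile), Fdps, Fdft1, Srebf2, Srebf1, Abca1, Abcg1 and Npc1 were lower in diet-fed Hap-I adults. Fdft1, Sqle, Dhcr7, Srebf1 and Abcg1 were so in diet-fed Hap-II adults. The share of all genes lower under all 3 was not computed. Taken singly, they called 59.7, 14.2 and 14.6% of all genes lower in diet-fed Hap-I adults. In diet-fed Hap-II adults they called 36.9, 9.77 and 10.9% lower. Both comparisons use the same 4 C57 libraries, so their likeness is not independent.

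The Hap-I count stayed between 17 and 23 when any library was left out, and 16 of its 23 calls held in all 8 such fits. The share of all genes called moved between 46.8 and 62.9% in the same fits. The Hap-II count was 6 without Hap-II replicate 3 (14% of all genes called), 9 without Hap-II replicate 4 (22.8%), 8 without C57 replicate 2 (21%), 10 without C57 replicate 3 (21.8%) and 9 without C57 replicate 4 (18.2%), beside 39.7% of all genes in the full fit. Of its 16 calls 5 held in all 8 fits. For neither comparison was it counted how many calls over all genes held in all 8 fits. With Y-linked transcripts (averaged over 4 genes) added to the model, 12 members were lower in diet-fed Hap-I adults (24.4% of all genes) and 6 in diet-fed Hap-II adults (13.5%). For 7 members (Pmvk, Fdps, Fdft1, Sqle, Tm7sf2, Dhcr7 and Srebf2) all 12 western diet libraries lay below all 4 C57 libraries, which held for 13.7% of all genes tested. No member lay above C57 in all 12, as 0.635% of all genes did. Taken by group, the libraries lay below all C57 libraries for 22 members in diet-fed Hap-I adults (55.3% of all genes), 9 in diet-fed aged Hap-I mice (20%) and 13 in diet-fed Hap-II adults (26.7%). They lay above all C57 libraries for Idi1 in diet-fed Hap-I adults (2.38% of all genes), and for 0 members in diet-fed aged Hap-I mice (1.74%) and diet-fed Hap-II adults (2.79%).

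**Figure D2:**
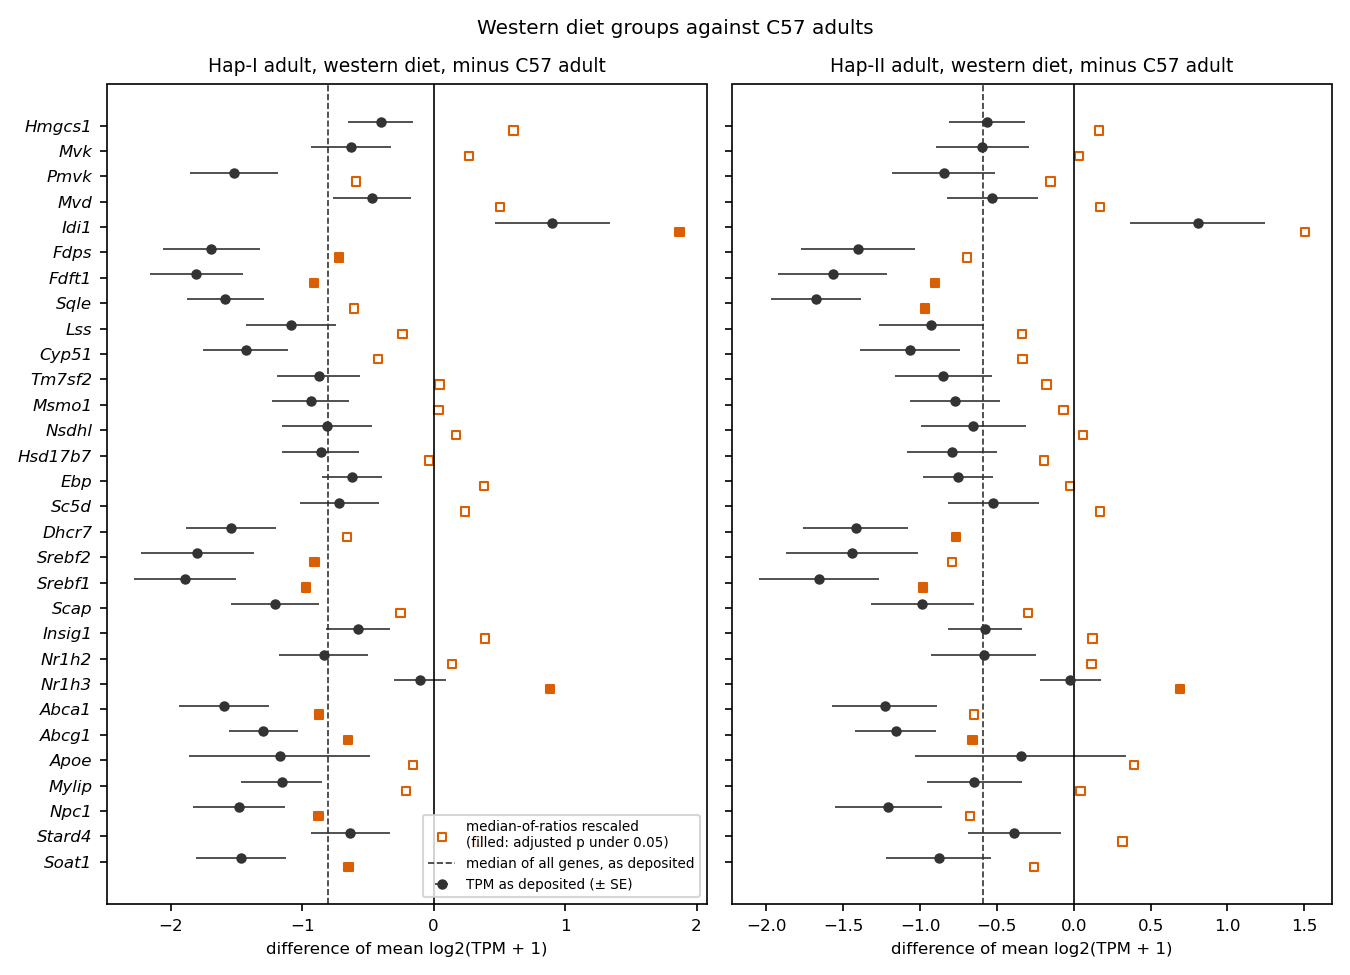
Change of each member in diet-fed Hap-I adults (left) and diet-fed Hap-II adults (right), each minus C57 adults, as a difference of mean log2(TPM + 1) with its SE (black) and after median-of-ratios rescaling (orange, filled where the adjusted p is under 0.05); the dashed line is the median of all genes as deposited, -0.80 on the left and -0.59 on the right. Most black points lie left of the dashed line, Idi1 and Nr1h3 lie right of it in both panels, and 10 orange squares are filled on the left and 6 on the right.

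Among the enzymes of synthesis, 13 of 17 were lower in diet-fed Hap-I adults (59.7% of all genes) and 10 of 17 in diet-fed Hap-II adults (36.9%), each against C57. After median-of-ratios rescaling 2 were lower and Idi1 higher in diet-fed Hap-I adults, and 3 were lower in diet-fed Hap-II adults. By that rescaling 14.2% of all genes were lower and 17.8% higher in diet-fed Hap-I adults, and 9.77% lower and 12.9% higher in diet-fed Hap-II adults. The first step of the list, Hmgcs1 (chr13:119690379-119708260, cytosolic HMG-CoA synthase), did not pass the test. Hmgcs1 had 53.4, 67.6, 65.8 and 80.9 TPM in diet-fed Hap-I adults, 50.98, 83.4, 105 and 88.7 TPM in diet-fed aged Hap-I mice and 66.6, 52.1, 48.9 and 71.9 TPM in diet-fed Hap-II adults. C57 adults had 57.8, 96.04, 101 and 106 TPM of Hmgcs1. The groups overlapped, because C57 replicate 1 lay among the western diet libraries and aged Hap-I replicate 3 among the other C57 libraries. Its change was -0.40 ± 0.25 (SE, adjusted p = 0.16) in diet-fed Hap-I adults and -0.56 ± 0.25 (SE, adjusted p = 0.0751) in diet-fed Hap-II adults, which is smaller than that of the median gene in the first case and near it in the second.

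Pmvk, phosphomevalonate kinase, had 12.6, 9.16, 8.85 and 3.04 TPM in diet-fed Hap-I adults, 8.87, 15.05, 14.8 and 8.08 TPM in diet-fed aged Hap-I mice and 17.05, 16.5, 9.37 and 9.92 TPM in diet-fed Hap-II adults. The 4 C57 libraries had 29.2, 21.1, 20.8 and 24.8 TPM of Pmvk. All 12 western diet libraries were below all 4 C57 libraries, and the change passed in diet-fed Hap-I adults, -1.52 ± 0.33 (SE, adjusted p = 0.00233), and missed the threshold in diet-fed Hap-II adults, -0.85 ± 0.33 (SE, adjusted p = 0.0522). Mvk, the kinase before it, and Mvd, the decarboxylase after it, passed in neither, with changes of -0.63 and -0.47 in diet-fed Hap-I adults and -0.60 and -0.53 in diet-fed Hap-II adults. Fdps, which makes farnesyl diphosphate, had 21.4, 11.1, 12.4 and 7.83 TPM in diet-fed Hap-I adults, 12.2, 25.4, 22.8 and 10.2 TPM in diet-fed aged Hap-I mice and 23.4, 25.04, 9.06 and 10.2 TPM in diet-fed Hap-II adults. For C57 adults the Fdps values were 56.1, 38.1, 33.96 and 43.9 TPM. No western diet library reached the C57 range, and the changes were -1.69 ± 0.37 (SE, adjusted p = 0.00233) in diet-fed Hap-I adults and -1.40 ± 0.37 (SE, adjusted p = 0.0117) in diet-fed Hap-II adults.

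The enzymes that commit farnesyl diphosphate to sterols were among the members with the most negative changes. Fdft1, squalene synthase, had 8.05, 4.48, 4.58 and 2.22 TPM in diet-fed Hap-I adults, 4.84, 10.7, 6.78 and 3.22 TPM in diet-fed aged Hap-I mice and 9.80, 6.32, 3.33 and 4.003 TPM in diet-fed Hap-II adults. In C57 adults Fdft1 had 21.8, 18.6, 15.7 and 16.9 TPM. The highest western diet library was aged Hap-I replicate 2, still below every C57 library. Its change was -1.80 ± 0.36 (SE, adjusted p = 0.00154) in diet-fed Hap-I adults and -1.57 ± 0.36 (SE, adjusted p = 0.00639) in diet-fed Hap-II adults. Sqle, squalene epoxidase and a rate-controlling step, had 12.7, 12.98, 12.1 and 12.2 TPM in diet-fed Hap-I adults, 6.84, 17.6, 22.3 and 12.01 TPM in diet-fed aged Hap-I mice and 18.2, 8.26, 9.86 and 12.2 TPM in diet-fed Hap-II adults. C57 adults had 30.98, 43.9, 45.5 and 39.2 TPM of Sqle. Of these, diet-fed Hap-I adults lay close together, and the groups did not overlap. The changes were -1.58 ± 0.30 (SE, adjusted p = 0.00128) in diet-fed Hap-I adults and -1.68 ± 0.30 (SE, adjusted p = 0.00181) in diet-fed Hap-II adults, and after rescaling they were -0.61 (adjusted p = 0.0675) and -0.97 (adjusted p = 0.0144).

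Steps from lanosterol onward differed in size. Cyp51 had 55.6, 44.2, 41.6 and 32.03 TPM in diet-fed Hap-I adults, 40.6, 109, 52.7 and 37.8 TPM in diet-fed aged Hap-I mice and 95.8, 63.3, 42.1 and 36.1 TPM in diet-fed Hap-II adults. The 4 C57 libraries had 112, 134, 114 and 107 TPM of Cyp51. Aged Hap-I replicate 2 on the diet reached the C57 range, while the other 11 western diet libraries lay below it. Its change was -1.43 ± 0.32 (SE, adjusted p = 0.00269) in diet-fed Hap-I adults and -1.06 ± 0.32 (SE, adjusted p = 0.0208) in diet-fed Hap-II adults. Dhcr7, which makes cholesterol from 7-dehydrocholesterol in the last step of one branch, had 4.71, 5.47, 3.40 and 2.46 TPM in diet-fed Hap-I adults, 2.62, 8.01, 10.5 and 5.01 TPM in diet-fed aged Hap-I mice and 8.19, 3.09, 2.96 and 4.29 TPM in diet-fed Hap-II adults. For C57 adults the Dhcr7 values were 13.5, 14.7, 10.8 and 13.99 TPM. The groups did not overlap, with changes of -1.54 ± 0.34 (SE, adjusted p = 0.00248) in diet-fed Hap-I adults and -1.42 ± 0.34 (SE, adjusted p = 0.00828) in diet-fed Hap-II adults. Lss (lanosterol synthase), Tm7sf2 (a sterol reductase), Msmo1 (C4 methyl oxidation), Nsdhl and Hsd17b7 (C4 demethylation), Ebp and Sc5d (sterol desaturation) had changes between -1.08 and -0.62 in diet-fed Hap-I adults, all past the threshold. After median-of-ratios rescaling, Tm7sf2, Msmo1, Nsdhl, Ebp and Sc5d had positive values in diet-fed Hap-I adults, none past the threshold. In diet-fed Hap-II adults 5 of these 7 were lower, and Nsdhl and Sc5d were not called.

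Idi1, the isomerase that makes dimethylallyl diphosphate and lies between Mvd and Fdps in the pathway, did not pass the test as deposited, and its value was the 1 positive change among the members. Idi1 (chr13:8885501-8892451) had 20.4, 42.5, 32.5 and 30.05 TPM in diet-fed Hap-I adults, 12.4, 13.4, 51.3 and 32.01 TPM in diet-fed aged Hap-I mice and 15.7, 16.5, 57.4 and 42.3 TPM in diet-fed Hap-II adults. In C57 adults Idi1 had 15.8, 15.5, 16.05 and 15.7 TPM. The 4 C57 libraries lay between 15.5 and 16.05 TPM, and the western diet libraries were scattered above, within and below that narrow range. The change was 0.90 ± 0.44 (SE, adjusted p = 0.0805) in diet-fed Hap-I adults and 0.81 ± 0.44 (SE, adjusted p = 0.141) in diet-fed Hap-II adults as deposited, and after median-of-ratios rescaling it was 1.87 (adjusted p = 0.0215) and 1.503 (adjusted p = 0.0663). The scatter followed Y-linked transcripts: Idi1 was 30.05 to 57.4 TPM in the 7 western diet libraries with Eif2s3y at 5 TPM or more, and 12.4 to 20.4 TPM in the 5 without, against 15.5 to 16.05 TPM in C57 adults, none of which reached 5 TPM of Eif2s3y. Idi1 was the 1 member of 30 whose levels separated these 7 from these 5, as happened for 5.53% of all genes tested (1.01% with the 7 higher and 4.51% with the 7 lower). With Y-linked transcripts in the model its change was -0.08 (adjusted p = 0.816) in diet-fed Hap-I adults and 0.10 (adjusted p = 0.749) in diet-fed Hap-II adults. Kap, a proximal tubule gene known to respond to androgen and 1 of the 11 nephron markers, split the same libraries, with 57568 to 80749 TPM in the 7 and 7196 to 21203 TPM in the 5. The other 10 nephron markers did not, summing to 552 to 3020 TPM in the 7 and 1060 to 3857 TPM in the 5. The part of these markers in the Idi1 levels was not tested. The 7 and the 5 were defined from the data, not from the labels.

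Idi1, Fdps and Fdft1 share sequence with other annotated genes, so their levels carry an added uncertainty. Words of 31 bases shared with other genes made up 27.1% of Idi1, 27.9% of Fdps and 31.9% of Fdft1, and 13.3% or less of any other member. Summed with its same-strand copy Gm13502, Idi1 was 30.05 to 63.7 TPM in the 7 libraries with Y-linked transcripts and 12.4 to 26.2 TPM in the 5 without. Its summed change was 1.23 in diet-fed Hap-I adults, now past the threshold (adjusted p = 0.0269 by limma), and 0.79 in diet-fed Hap-II adults (adjusted p = 0.156). Summed with the same-strand copies in the table, Fdps (3 copies) and Fdft1 (1 copy) changed by -1.69 and -1.80 in diet-fed Hap-I adults, against -1.69 and -1.80 alone. Gm43738, which shares 24.6% of the Fdps words, and Gm7979 and Gm35570, which share 6.17% of those of Fdps and 8.18% of those of Idi1, were not analysed here and are in no sum. The Fdft1 overlap includes 17.6% of its words on the opposite strand of Ctsb, and for Scap 11.3% and for Hmgcs1 10.9% are likewise antisense to a neighbour. Whether the authors' counting used strand is not given in the sources used here.

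**Figure D3:**
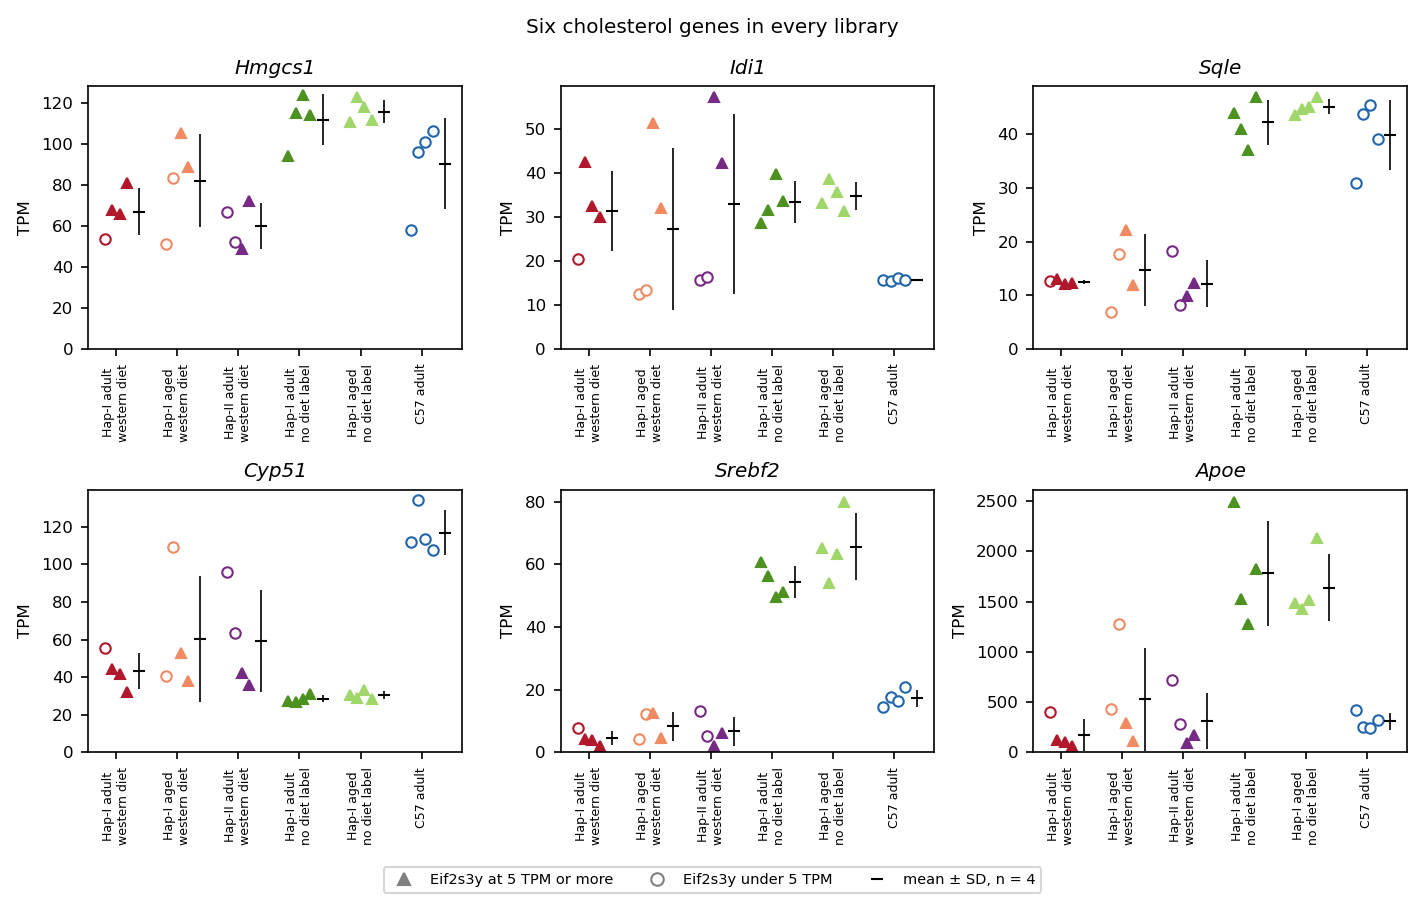
TPM of 6 members in each of the 24 libraries, with a group's mean and SD (n = 4) at its right; triangles are libraries with Eif2s3y, a Y-linked gene, at 5 TPM or more and open circles those below it. Idi1 is 30.05 to 57.4 TPM at the western diet triangles and 12.4 to 20.4 TPM at the western diet circles, while Sqle and Srebf2 lie below C57 in all 12 western diet libraries.

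The sensing and control genes were lower as well: all 4 passed in diet-fed Hap-I adults (59.7% of all genes lower) and 3 of 4 in diet-fed Hap-II adults (36.9%), each against C57. After median-of-ratios rescaling Srebf2 and Srebf1 passed in the first and Srebf1 in the second. Srebf2, which encodes the SREBP that chiefly drives synthesis, had 7.80, 4.29, 3.98 and 2.21 TPM in diet-fed Hap-I adults, 4.19, 12.2, 12.6 and 4.65 TPM in diet-fed aged Hap-I mice and 13.3, 5.36, 2.06 and 6.15 TPM in diet-fed Hap-II adults. C57 adults had 14.5, 17.6, 16.3 and 20.9 TPM of Srebf2. No western diet library reached the lowest C57 library, though Hap-II replicate 1 came close. The changes were -1.80 ± 0.43 (SE, adjusted p = 0.00343) in diet-fed Hap-I adults and -1.44 ± 0.43 (SE, adjusted p = 0.0187) in diet-fed Hap-II adults. Srebf1, the SREBP of fatty acid synthesis and a liver X receptor target, had 6.08, 7, 5.56 and 3.14 TPM in diet-fed Hap-I adults, 3.36, 16.1, 12.4 and 6.82 TPM in diet-fed aged Hap-I mice and 10.4, 7.13, 3.81 and 5.59 TPM in diet-fed Hap-II adults. The 4 C57 libraries had 22.05, 24.7, 14.1 and 31.5 TPM of Srebf1. Aged Hap-I replicate 2 on the diet exceeded C57 replicate 3, and the other western diet libraries lay below all C57 libraries. Its change, -1.89 ± 0.39 (SE, adjusted p = 0.00181) in diet-fed Hap-I adults and -1.66 ± 0.39 (SE, adjusted p = 0.00725) in diet-fed Hap-II adults, stayed past the threshold after rescaling, at -0.97 (adjusted p = 0.0142) and -0.98 (adjusted p = 0.0187).

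Insig1, which retains SCAP in the endoplasmic reticulum and is itself an SREBP target, had 16.4, 15.1, 21.4 and 11.8 TPM in diet-fed Hap-I adults, 11.2, 17.1, 18.5 and 11.7 TPM in diet-fed aged Hap-I mice and 18.4, 13.97, 15.999 and 15.1 TPM in diet-fed Hap-II adults. For C57 adults the Insig1 values were 30.9, 30.5, 17.5 and 20.4 TPM. The western diet libraries of Hap-I adult replicate 3, aged Hap-I replicate 3 and Hap-II replicate 1 exceeded C57 replicate 3. The change was -0.58 ± 0.24 (SE, adjusted p = 0.0473) in diet-fed Hap-I adults and -0.58 ± 0.24 (SE, adjusted p = 0.0636) in diet-fed Hap-II adults, and after rescaling it was 0.39 and 0.12, with neither past the threshold. Scap, the escort itself, changed by -1.20 ± 0.34 (SE, adjusted p = 0.00717) in diet-fed Hap-I adults and -0.99 ± 0.34 (SE, adjusted p = 0.0316) in diet-fed Hap-II adults. In diet-fed Hap-I adults the change of Insig1 as deposited was less negative than that of the median gene, and the changes of Srebf1, Srebf2 and Scap were more negative. Whether the members of the control machinery differed from each other was not tested.

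On the efflux side 3 of 5 members were lower in diet-fed Hap-I adults (59.7% of all genes) and 2 of 5, both transporters, in diet-fed Hap-II adults (36.9%), each against C57. After median-of-ratios rescaling Abca1 and Abcg1 were lower in diet-fed Hap-I adults and Abcg1 in diet-fed Hap-II adults, and Nr1h3 was higher in both. Abca1, which loads cholesterol onto apolipoproteins, had 1.56, 1.75, 1.75 and 0.536 TPM in diet-fed Hap-I adults, 1.47, 4.32, 2.91 and 0.965 TPM in diet-fed aged Hap-I mice and 3.97, 1.44, 1.68 and 1.51 TPM in diet-fed Hap-II adults. In C57 adults Abca1 had 3.79, 9.61, 5.78 and 6.17 TPM. The lowest value of any library was that of Hap-I adult replicate 4 on the diet, and C57 replicate 1 lay below 2 western diet libraries. Abca1 changed by -1.59 ± 0.34 (SE, adjusted p = 0.0021) in diet-fed Hap-I adults and -1.23 ± 0.34 (SE, adjusted p = 0.0143) in diet-fed Hap-II adults. Abcg1, which passes cholesterol to lipoprotein particles, had 1.27, 1.18, 1.33 and 0.394 TPM in diet-fed Hap-I adults, 1.70, 2.94, 1.15 and 1.76 TPM in diet-fed aged Hap-I mice and 1.81, 1.48, 0.522 and 1.21 TPM in diet-fed Hap-II adults. C57 adults had 3.94, 3.99, 2.53 and 5.71 TPM of Abcg1. Aged Hap-I replicate 2 on the diet was above the lowest C57 library, and the rest lay below all C57 libraries. For Abcg1 the change was -1.30 ± 0.26 (SE, adjusted p = 0.00176) in diet-fed Hap-I adults and -1.16 ± 0.26 (SE, adjusted p = 0.00658) in diet-fed Hap-II adults, and both transporters are so low that log2(TPM + 1) understates their fold.

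Apoe had 403, 121, 106 and 61.99 TPM in diet-fed Hap-I adults, 432, 1275, 289 and 109.6 TPM in diet-fed aged Hap-I mice and 716, 285, 92.2 and 171 TPM in diet-fed Hap-II adults. The 4 C57 libraries had 423, 257, 239.9 and 324 TPM of Apoe. The libraries of every western diet group were scattered on both sides of the lowest C57 library, and the change was -1.17 ± 0.69 (SE, adjusted p = 0.141) in diet-fed Hap-I adults and -0.35 ± 0.69 (SE, adjusted p = 0.69) in diet-fed Hap-II adults. The library with the highest Apoe on the diet, aged Hap-I replicate 2, also had the highest sum of 7 macrophage markers, 168 TPM, and the one with the lowest, Hap-I adult replicate 4, the lowest sum, 26.8 TPM. Over the 12 western diet libraries these markers summed to 26.8 to 168 TPM, against 82.8 to 130 TPM in C57 adults, and none was listed at 0. Apoe was 61.995 to 289 TPM in the 7 western diet libraries with Y-linked transcripts and 285 to 1275 TPM in the 5 without, ranges that overlap slightly. The part of macrophages in the Apoe levels was not tested. Nr1h3, the liver X receptor alpha gene, had 25.1 to 44.3 TPM (median 32.9) in the 12 western diet libraries, against 31.96 to 39.1 TPM (median 34.7) in C57 adults. Its change was -0.10 ± 0.20 (SE, adjusted p = 0.654) in diet-fed Hap-I adults and -0.02 ± 0.20 (SE, adjusted p = 0.93) in diet-fed Hap-II adults as deposited, and 0.89 (adjusted p = 0.0115) and 0.69 (adjusted p = 0.0433) after rescaling. Nr1h2, the liver X receptor beta gene, changed by -0.84 ± 0.34 (SE, adjusted p = 0.0419) in diet-fed Hap-I adults, close to the median gene, and by -0.59 ± 0.34 (SE, adjusted p = 0.165) in diet-fed Hap-II adults.

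In uptake, transport and storage, 3 of 4 members were lower in diet-fed Hap-I adults (59.7% of all genes) and 1 of 4 in diet-fed Hap-II adults (36.9%), each against C57. After median-of-ratios rescaling Npc1 and Soat1 passed in the first and none in the second. Soat1, which esterifies cholesterol for storage, had 2.70, 2.76, 2.06 and 1.62 TPM in diet-fed Hap-I adults, 1.72, 5.64, 5.58 and 4.18 TPM in diet-fed aged Hap-I mice and 7.76, 2.81, 2.74 and 3.56 TPM in diet-fed Hap-II adults. For C57 adults the Soat1 values were 4.34, 11.98, 8.73 and 8.67 TPM. Hap-II replicate 1 stood apart from the rest of its group, and C57 replicate 1 lay well below the other C57 libraries. The change was -1.47 ± 0.34 (SE, adjusted p = 0.0031) in diet-fed Hap-I adults and -0.88 ± 0.34 (SE, adjusted p = 0.0507) in diet-fed Hap-II adults. Stard4, a carrier of cholesterol between membranes and an SREBP target, had 23.6, 16.1, 17.1 and 9.81 TPM in diet-fed Hap-I adults, 17.1, 26.02, 21.3 and 14.4 TPM in diet-fed aged Hap-I mice and 30.7, 20.04, 14.1 and 15.1 TPM in diet-fed Hap-II adults. In C57 adults Stard4 had 15.9, 30.03, 30.6 and 27.5 TPM. These groups overlapped, with changes of -0.63 ± 0.30 (SE, adjusted p = 0.0754) in diet-fed Hap-I adults and -0.39 ± 0.30 (SE, adjusted p = 0.296) in diet-fed Hap-II adults. Npc1 was 0.183 to 2.73 TPM (median 0.941) in the 12 western diet libraries, against 1.52 to 4.87 TPM (median 4.77) in C57 adults, and changed by -1.48 ± 0.35 (SE, adjusted p = 0.00327) in diet-fed Hap-I adults and -1.21 ± 0.35 (SE, adjusted p = 0.0169) in diet-fed Hap-II adults. Mylip, the ubiquitin ligase that marks lipoprotein receptors for degradation, changed by -1.16 ± 0.31 (SE, adjusted p = 0.00579) in diet-fed Hap-I adults and -0.65 ± 0.31 (SE, adjusted p = 0.0973) in diet-fed Hap-II adults.

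A further 41 genes of the same pathways, listed by role, give the setting. Of these, 34 passed the filter on low values, 23 were lower in diet-fed Hap-I adults (59.7% of all genes) and 15 in diet-fed Hap-II adults (36.9%), and 0 were higher in either, each against C57. After median-of-ratios rescaling 9 were lower and 7 higher in diet-fed Hap-I adults, and 7 lower and 4 higher in diet-fed Hap-II adults. Their median change was -1.11 in diet-fed Hap-I adults and -0.79 in diet-fed Hap-II adults, beside -0.80 and -0.59 for all genes. Uptake and transport genes were lower in 9 of 10 tested in diet-fed Hap-I adults (4 lower and 1 higher after rescaling), among them Lrp1, a large endocytic receptor (-1.95, adjusted p = 0.000825), and Scarb1, the receptor for high-density lipoprotein (-1.68, adjusted p = 0.00142). Efflux, oxysterol and ester genes were lower in 7 of 9 there (3 lower and 1 higher after rescaling), among them Apoc1 (-2.33, adjusted p = 0.00516). Cyp7b1, which hydroxylates oxysterols and is given here because its values were seen to split the libraries as Idi1 does, was 9.49 to 46.5 TPM in the 7 western diet libraries with Y-linked transcripts and 0.417 to 1.22 TPM in the 5 without, against 4.41 to 8.76 TPM in C57 adults.

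Age on western diet was compared in Hap-I mice, aged against adult. No member passed the threshold by limma, where 4 of 12923 genes passed (0.031%; 0.0232% higher and 0.00774% lower). At an unadjusted p under 0.05 there were also 0 members, and 2080 of all genes (16.1%). The members' median change was 0.33, near the 0.32 of all genes, and 26 of 30 were positive. Apoe had the largest difference, 432, 1275, 289 and 109.6 TPM in aged mice, against 403, 121, 106 and 61.99 TPM in adults, a change of 1.43 ± 0.69 (SE, adjusted p = 0.312). Those ranges overlapped. Srebf2 had 4.19, 12.2, 12.6 and 4.65 TPM in aged mice, against 7.80, 4.29, 3.98 and 2.21 TPM in adults, a change of 0.71 ± 0.43 (SE, adjusted p = 0.388), and its aged libraries fell into a higher pair and a lower pair. Idi1 was among the 4 negative members, at -0.38 ± 0.44 (SE, adjusted p = 0.607). With weights that count variable libraries less, 4 members were higher in aged mice: Mvd (0.88), Srebf2 (0.98), Scap (0.86) and Nr1h2 (0.70). That is 13.3% of the members, beside 15.8% of all genes higher with the same weights. The 7 macrophage markers summed to 67.2 to 168 TPM in aged mice and 26.8 to 91.9 TPM in adults, and their part in these values was not tested.

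Haplotype was compared in adults on western diet, Hap-I against Hap-II. Again 0 of 30 members passed by limma, where 10 of 12923 genes passed (0.0774%; 0.0232% higher and 0.0542% lower). At an unadjusted p under 0.05 there were also 0 members, and 421 of all genes (3.26%). Changes ran from -0.83 for Apoe to 0.16 for Hmgcs1, with a members' median of -0.18 against -0.22 for all genes. Pmvk was 12.6, 9.16, 8.85 and 3.04 TPM in Hap-I adults and 17.05, 16.5, 9.37 and 9.92 TPM in Hap-II adults, a change of -0.67 ± 0.33 (SE, adjusted p = 0.817) with overlapping ranges. Sqle was nearly level, at 12.5 ± 0.431 TPM in Hap-I adults and 12.1 ± 4.37 TPM in Hap-II adults (SD, n = 4 each), and its log2 change of 0.09 has an SE of 0.30.

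Cholesterol genes differed between the 8 Hap-I libraries with no diet named and the 16 kidney libraries. In the counts without overlap and in the calls against C57 as deposited, their shares were no larger than those of all genes. In 11 members (Pmvk, Fdps, Fdft1, Msmo1, Sc5d, Dhcr7, Srebf2, Insig1, Abcg1, Apoe and Npc1) all 8 lay above all other 16 libraries, as did 41.3% of all genes tested, and in Ebp and Nr1h3 all 8 lay below, as did 11.7%. Hap-I adults with no diet named against C57 gave 12 members higher and 7 lower by limma in the fit of all 24 libraries, where 45.6% of 15200 genes were higher and 25.6% lower (71.3% in either direction). The members' median change was 0.44, against 0.40 for all genes. After median-of-ratios rescaling 10 members were higher and 8 lower, and after quantile normalization 9 were higher and 10 lower, while the split over all genes was 5936 higher and 4929 lower and then 5404 higher and 5633 lower. Under all 3 scalings 16 members kept their call and direction: Pmvk, Mvd, Fdps, Fdft1, Cyp51, Msmo1, Nsdhl, Ebp, Sc5d, Srebf2, Nr1h3, Abcg1, Apoe, Mylip, Npc1 and Stard4. The share of all genes that kept theirs was not computed. Taken singly, the 3 scalings called 71.3% (as deposited), 71.5% (median of ratios) and 72.6% (quantile) of all genes. These 8 libraries carry neuron, astrocyte (6 markers summing to 2097 to 2472 TPM, against 35.8 to 50.2 TPM in C57 adults) and oligodendrocyte transcripts and few nephron transcripts. Eif2s3y was 6.59 to 31.2 TPM in them, against 0.019 to 0.107 TPM in C57 adults. Line, tissue content, Y-linked transcripts and any diet therefore cannot be told apart here.

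Within the synthesis pathway the 8 libraries were high in some steps and low in others. Msmo1 was 86.6 to 118 TPM (median 103) in them, against 26.3 to 38.7 TPM (median 30.8) in C57 adults, and its change in adults was 1.64 ± 0.25 (SE, adjusted p = 3.92e-06). Fdft1 was 48.3 to 65.9 TPM (median 56.6), against 15.7 to 21.8 TPM (median 17.7) in C57 adults, a change of 1.58 ± 0.31 (SE, adjusted p = 8.00e-05). In the other direction, Cyp51, upstream of Msmo1, was 26.9 to 33.3 TPM (median 28.9), against 107 to 134 TPM (median 113) in C57 adults. Its change was -1.99 ± 0.28 (SE, adjusted p = 1.18e-06 by limma). Ebp was 13.3 to 22.2 TPM (median 17.8), against 68.8 to 87.9 TPM (median 72.7) in C57 adults, with a change of -1.87 ± 0.20 (SE, adjusted p = 2.36e-08). Sqle was 37.1 to 47.03 TPM (median 44.4), against 30.98 to 45.5 TPM (median 41.6) in C57 adults, and its change of 0.09 ± 0.25 (SE, adjusted p = 0.753) did not pass, and after quantile normalization it was -0.41 (adjusted p = 0.0499). The order of these enzymes thus differed, with Cyp51 above Msmo1 in every C57 library and Msmo1 above Cyp51 in every one of the 8.

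At the head of the pathway, Hmgcs1 was 94.1 to 124 TPM (median 114) in the 8 libraries, against 57.8 to 106 TPM (median 98.5) in C57 adults, with a change in adults of 0.34 ± 0.21 (SE, adjusted p = 0.154). Idi1 was 28.6 to 39.8 TPM (median 33.4), against 15.5 to 16.05 TPM (median 15.7) in C57 adults, a change of 1.03 ± 0.38 (SE, adjusted p = 0.0198), and all 8 of these libraries had Eif2s3y at 5 TPM or more. Pmvk, Fdps and Dhcr7 were higher, by 1.26, 1.16 and 0.89 (adjusted p = 0.000679, 0.00309 and 0.00883). After rescaling Dhcr7 was at 0.54 (adjusted p = 0.0298) and Idi1 at 0.68 (adjusted p = 0.218).

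Of the 4 sensing and control genes 2 were higher in Hap-I adults with no diet named than in C57 adults (45.6% of all genes), and of the 5 liver X receptor and efflux genes 2 were higher and 1 lower (25.6%). Srebf1 (0.20), Scap (0.53), Nr1h2 (-0.26) and Abca1 (0.21) did not pass. The role medians were 0.54 and 0.21, beside 0.40 for all genes. Srebf2 was 49.5 to 80.01 TPM (median 58.5) in the 8 libraries, against 14.5 to 20.9 TPM (median 16.9) in C57 adults, a change in adults of 1.61 ± 0.37 (SE, adjusted p = 0.000554). Abcg1 was 17.7 to 29.2 TPM (median 22.8), against 2.53 to 5.71 TPM (median 3.96) in C57 adults, a change of 2.15 ± 0.22 (SE, adjusted p = 1.27e-08). Apoe was 1279 to 2489 TPM (median 1519), against 239.9 to 423 TPM (median 291) in C57 adults, a change of 2.50 ± 0.61 (SE, adjusted p = 0.000939). These 3 were higher, and Nr1h3 was lower: 2.24 to 5.20 TPM (median 3.52), against 31.96 to 39.1 TPM (median 34.7) in C57 adults, a change of -2.95 ± 0.20 (SE, adjusted p = 8.83e-12). Npc1 was 11.6 to 30.9 TPM (median 24.6), against 1.52 to 4.87 TPM (median 4.77) in C57 adults, a change of 1.98 ± 0.32 (SE, adjusted p = 7.58e-06). Stard4 was 6.997 to 13.1 TPM (median 11.2), against 15.9 to 30.6 TPM (median 28.8) in C57 adults, a change of -1.30 ± 0.26 (SE, adjusted p = 0.00015). Of the 41 genes of the wider list, 38 were tested here, with 12 higher and 14 lower (45.6% and 25.6% of all genes). Their median change was -0.053, beside 0.40 for all genes. Cyp46a1, the neuronal cholesterol 24-hydroxylase, was 87.4 to 131 TPM in the 8 libraries and 0.15 to 1.04 TPM in the other 16. Abcg4 was 27.6 to 41.4 TPM in the 8 and 0 to 0.212 TPM in the other 16. Both passed the filter on low values only through the 8 libraries, so no test is given for them.

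**Figure D4:**
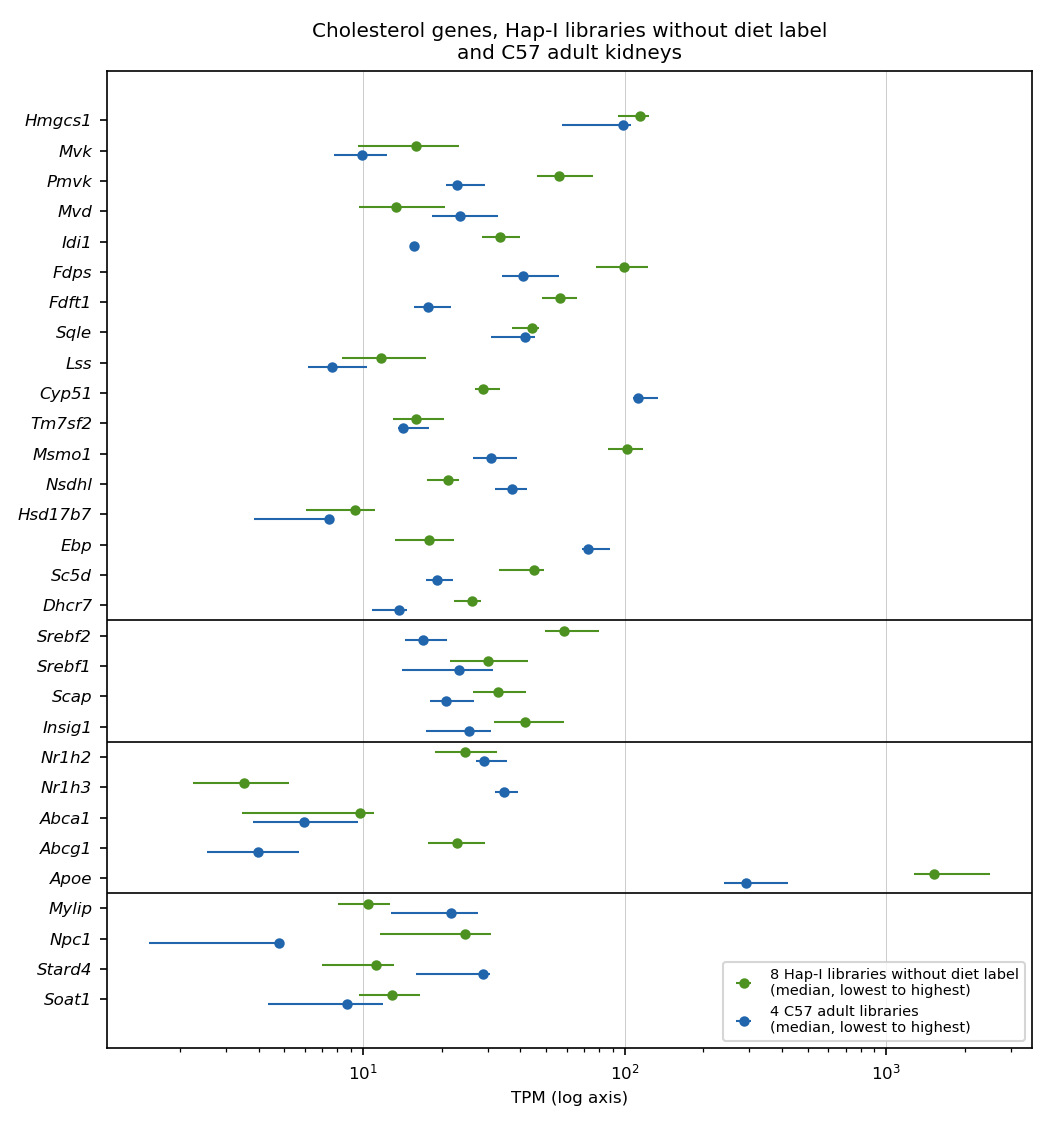
Level of each member in the 8 Hap-I libraries with no diet named (green) and in the 4 C57 adult libraries (blue), as median with the lowest and highest library, on a log axis of TPM; lines separate the 4 roles. The green and blue ranges change places within the synthesis genes, with Msmo1 at 86.6 to 118 TPM in the 8 libraries against 26.3 to 38.7 TPM in C57 adults, and Cyp51 at 26.9 to 33.3 TPM in the 8 against 107 to 134 TPM in C57 adults.

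Setting the western diet groups against the Hap-I groups with no diet named compares libraries of different tissue content, and tissue and diet cannot be told apart. The median gene changed by -1.08 in adults and -0.97 in aged mice. In adults 3 members (Ebp, Nr1h3 and Stard4) were higher and 21 lower by limma, where 16.9% of genes were higher and 63.3% lower (80.2% in either direction), and in aged mice 5 (these and Mvd and Cyp51) were higher and 21 lower, where 20.5% were higher and 60.5% lower (81.0% in either direction). After median-of-ratios rescaling the members' split was 10 higher and 14 lower in adults and 8 higher and 16 lower in aged mice. For all genes it was 5337 higher and 6359 lower in adults, and 5356 higher and 6371 lower in aged mice. Srebf2 changed by -3.40 ± 0.37 (SE, adjusted p = 2.02e-08) in adults and -2.95 ± 0.37 (SE, adjusted p = 1.94e-07) in aged mice, and Nr1h3 by 2.85 ± 0.20 (SE, adjusted p = 1.43e-11) in adults and 2.94 ± 0.20 (SE, adjusted p = 8.10e-12) in aged mice. Directions of several smaller changes turned with the scaling: Mylip, at -0.14 in adults as deposited, was 1.04 after median-of-ratios rescaling (adjusted p = 7.52e-06). The age difference on the diet was also set against that without it, and 0 of 30 members had a difference past the threshold, also 0 at an unadjusted p under 0.05.

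With no diet named, aged against adult Hap-I libraries gave 0 members past the threshold by limma, where 4 of 13497 genes passed (0.0296%). At an unadjusted p under 0.05 there were 5 members (Npc1, Insig1, Srebf1, Hsd17b7 and Abcg1), or 16.7%, beside 15.4% of all genes. Npc1 had 26.8, 26.2, 30.9 and 30.5 TPM in aged mice, against 11.6, 23.01, 20.3 and 17.6 TPM in adults, a change of 0.67 ± 0.18 (SE, adjusted p = 0.211). All aged libraries lay above all adult ones for Npc1. Insig1 had 44.9, 46.4, 58.8 and 45.5 TPM in aged mice, against 31.6, 36.5, 38.2 and 37.7 TPM in adults, a change of 0.43 ± 0.12 (SE, adjusted p = 0.211), also without overlap. Srebf1 had 33.97, 30.8, 42.9 and 37.5 TPM in aged mice, against 26.4, 29.2, 21.5 and 26.2 TPM in adults, a change of 0.47 ± 0.13 (SE, adjusted p = 0.211). Its groups did not overlap either. In 5 of 30 members all aged libraries lay above all adult ones, as in 10.5% of all genes tested, and in 0 below, as in 0.615%. Hap-I adult replicate 1 was the lowest adult library for Npc1, Insig1 and Abca1, and these 8 libraries differ in oligodendrocyte markers, which summed to 4322 to 5453 TPM in aged mice and 2725 to 3715 TPM in adults. Their part in these values was not tested.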

How the data were processed

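Polyadenylated kidney RNA of 24 mice (4 per group, per the series' design text) was sequenced with a stranded TruSeq kit, per the labels' protocols. The authors deposited 1 table of TPM values (transcript levels scaled by length and library) per gene and library; kallisto, DESeq2 and GRCm38 are named, without roles or versions, in the submitters' processing notes. TPM keeps no read depth (columns summed to 904693 to 944019), so no counting interval is given. Of the Ensembl identifiers 29811 matched GENCODE M21, and 342 did not.

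From these values log2(TPM + 1) was computed, and limma 3.58.1 in R 4.3.3 (lmFit, eBayes with trend) was run on genes with at least 1 TPM in at least 4 libraries, with Benjamini-Hochberg adjustment over all genes tested and a threshold of 0.05. The 12 western diet and 4 C57 libraries were fitted together (16 libraries), the age comparison without a named diet on its 8 libraries, and comparisons across both kinds of library on all 24. A rescaling by the median of ratios, quantile normalization, other filters, pseudocounts, sample sets and covariates were tried. P-values rest on the spread between the 4 animals of a group, pooled over the groups of a fit and moderated across genes by eBayes. In the fits of all 24 libraries, that spread includes the 8 libraries with brain transcripts. Log2(TPM + 1) understates the change of low genes. Motifs were searched with Python 3.11.15. Every library's value was given for 16 members: 10 with the smallest adjusted p past the threshold in the kidney comparisons, and a fixed set. The members and lists were chosen with earlier results of these data known.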

Additional observations from a re-analysis of the deposited data

Results flagged for a closer look

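In 10 of 180 sets of 4 libraries (30 members in 6 groups), 1 library lay far from the other 3, with a gap above Dixon's critical value for 4 values. Chance gives about 1 in 20 such sets. Hsd17b7 was 6.07 TPM in Hap-I adult with no diet named replicate 1, against 8.39 to 8.71 TPM in the rest of its group. Hsd17b7 was 3.84 TPM in C57 adult replicate 1, against 7.41 to 7.69 TPM in the rest of its group. Sc5d was 7.999 TPM in diet-fed Hap-I adult replicate 4, against 12.4 to 12.98 TPM in the rest of its group. Insig1 was 58.8 TPM in aged Hap-I with no diet named replicate 3, against 44.9 to 46.4 TPM in the rest of its group. Abca1 was 0.536 TPM in diet-fed Hap-I adult replicate 4, against 1.56 to 1.75 TPM in the rest of its group. Abca1 was 3.98 TPM in diet-fed Hap-II adult replicate 1, against 1.44 to 1.68 TPM in the rest of its group. Abcg1 was 0.394 TPM in diet-fed Hap-I adult replicate 4, against 1.18 to 1.33 TPM in the rest of its group. Abca1 and Abcg1 shared their low library, diet-fed Hap-I adult replicate 4, with Sc5d. Apoe was 2129 TPM in aged Hap-I with no diet named replicate 4, against 1421 to 1511 TPM in the rest of its group. Npc1 was 1.52 TPM in C57 adult replicate 1, against 4.74 to 4.87 TPM in the rest of its group. Soat1 was 7.75 TPM in diet-fed Hap-II adult replicate 1, against 2.74 to 3.56 TPM in the rest of its group. C57 replicate 1 was the low library for Hsd17b7 and Npc1, and diet-fed Hap-II replicate 1 the high library for Abca1 and Soat1.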

How the results depend on the processing

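Scaling and single libraries decided the counts. For diet-fed Hap-I adults against C57, 23 members were called, beside 62.0% of all genes. The count was 10 after median-of-ratios rescaling (32% of all genes) and 12 after quantile normalization (30.3%). It was 12 with Y-linked transcripts in the model (25.4%) and 28 with array weights (85.1%). With 1 library left out it was 17 to 23 (46.8 to 62.9%). For diet-fed Hap-II adults against C57, 16 members were called, beside 39.7% of all genes. The count was 6 after median-of-ratios rescaling (22.6% of all genes) and 8 after quantile normalization (22.6%). It was 6 with Y-linked transcripts in the model (14.9%) and 26 with array weights (75.1%). With 1 library left out it was 6 to 23 (14 to 54.2%). Age on the diet gave 0 members, and 4 with array weights, all higher, beside 15.8% of all genes higher with these weights. Haplotype, and age with no diet named, gave 0 members under every setting run. Of 4245 values of single genes under other settings, 3694 kept direction and side of the threshold, 204 lost the call, 78 gained one, 231 changed sign without a call and 38 changed sign with one. The causes were not tested.

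Where the sign changed and either value passed the threshold, 16 of the 38 values passed it under the other scaling and 22 as deposited only. Their log2 changes under the other scaling were as follows. Against C57, diet-fed Hap-I adults had Tm7sf2 0.045, Msmo1 0.038, Nsdhl 0.17, Ebp 0.38, Sc5d 0.24, Insig1 0.39, Nr1h2 0.14 and Nr1h3 0.89 after median-of-ratios rescaling, and Tm7sf2 0.082, Hsd17b7 0.086, Ebp 0.030, Sc5d 0.18, Insig1 0.28 and Nr1h3 0.67 after quantile normalization. Diet-fed Hap-II adults had Nr1h3 0.69 after median-of-ratios rescaling. Hap-I adults with no diet named had Sqle -0.41 and Tm7sf2 -0.43 after quantile normalization. Diet-fed against no-diet Hap-I adults had Hmgcs1 0.56, Idi1 1.15, Tm7sf2 0.21, Insig1 0.13, Nr1h2 0.67 and Mylip 1.04 after median-of-ratios rescaling, and Hmgcs1 0.063, Mvk 0.26, Idi1 1.12, Lss 0.0067, Tm7sf2 0.52, Hsd17b7 0.33, Insig1 0.21, Nr1h2 0.81 and Mylip 1.31 after quantile normalization. In aged mice the same contrast had Hmgcs1 0.51 and Mylip 0.82 after median-of-ratios rescaling, and Hmgcs1 0.17, Mvk 0.18, Hsd17b7 0.27 and Mylip 1.10 after quantile normalization.

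Samples of equal number correlated between -0.13 and 0.54 over their deviations from group means, and not every library matched its own number best, so the numbers were not taken as pairs. With the replicate block 0 members were called for age on the diet and 0 for haplotype, as without it in the same 12 libraries (a fit chosen after seeing the data). Summing the copies of Idi1, Fdps and Fdft1, also chosen after seeing the data, gave 24 called members for Hap-I and 16 for Hap-II. Without summing there were 23 and 16, where 62.0% and 39.7% of all genes were called. TPM carries no depth, so low members such as Abca1, Abcg1 and Npc1 have no counting error that could be given here.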
